A study of Mus musculus with 2 samples.

Results

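The MHC class II genes, their chaperones and Ciita were followed as 1 group of 10 mouse genes: H2-Aa, H2-Ab1, H2-Eb1 and H2-Eb2, which encode the peptide-presenting chains, H2-DMa and H2-DMb1, H2-Oa and H2-Ob, the invariant chain gene Cd74, and Ciita. They were chosen by name, and their probes were those whose transcript accession belongs to 1 of these genes. All 10 had a probe, out of 22906 genes that the array's probes could be matched to. RNA was measured on 1 Agilent array from primary macrophages and 1 from self-renewing macrophages, so each cell type is represented by 1 culture. Without replicates no test was possible, and no value below carries a spread between cultures.

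Both cultures came from bone marrow of C57BL/6 mice labelled as male, grown in RPMI1640 with 10% FCS and recombinant human M-CSF (rhM-CSF, the growth factor that drives macrophage formation) at 100 ng/ml. Primary macrophages were the cells labelled as day 5 of this culture. Self-renewing macrophages were labelled as cells after passage 4, obtained by detaching and reseeding the same kind of culture until dividing colonies took over. They were not described as a single clone, and the labels name no sort on surface MHC class II before RNA was taken. The primary array went against the label on sex, and the self-renewing array went with it. The scanner software flagged 0 of 4 Y-linked genes as well above background (hereafter detected) in the primary and 4 of 4 in the self-renewing macrophages. Xist, which coats the silent X chromosome, was detected in the primary macrophages alone. A difference in donor sex and the difference in cell type therefore cannot be told apart in the values below.

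MHC class II molecules are pairs of an alpha and a beta chain that carry peptides from the endosome to the cell surface and show them to CD4+ T cells. The invariant chain CD74 fills the groove of a new pair and guides it to the endosome, where cathepsins cut it down to a short peptide. The H2-DM pair then exchanges that peptide for others, and the H2-O pair holds H2-DM back. CIITA, a coactivator that does not bind DNA itself, switches on most of these genes together by docking onto a protein complex (RFX, CREB and NF-Y) that sits on short promoter elements, the X and Y boxes. In macrophages CIITA is classically induced by interferon-gamma, whereas dendritic cells and B cells make it without that signal.

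The complex that CIITA docks onto sits on elements of this kind, so stretches are shown for the members whose promoter could be read. H2-DMa, described below, is left out. The stretches are 70 bases long, written 5′ to 3′ on the strand of the gene and taken from the RefSeq promoters of the GRCm38.p6 build. Capitals mark ATTGG, the core of the Y box (CCAAT on the other strand), and ACNNATG, a core of the X box, where it lay within 40 bases before ATTGG. The stretch of H2-DMb2, a close relative of H2-DMb1 that is not a member, is added for comparison.
H2-Aa (chr17:34287852-34287921, minus strand): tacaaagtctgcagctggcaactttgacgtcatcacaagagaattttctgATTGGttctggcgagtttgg
H2-Eb1 (chr17:34305758-34305827, plus strand): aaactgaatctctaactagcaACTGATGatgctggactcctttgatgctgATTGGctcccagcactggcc
H2-Eb2 (chr17:34325525-34325594, plus strand): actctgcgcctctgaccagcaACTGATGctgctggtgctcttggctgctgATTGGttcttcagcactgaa
H2-DMb1 (chr17:34153080-34153149, plus strand): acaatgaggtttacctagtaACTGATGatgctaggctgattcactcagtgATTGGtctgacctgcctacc
H2-DMb2 (chr17:34145109-34145178, plus strand): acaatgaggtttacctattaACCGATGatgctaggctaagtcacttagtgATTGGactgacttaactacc
H2-Oa (chr17:34092286-34092355, plus strand): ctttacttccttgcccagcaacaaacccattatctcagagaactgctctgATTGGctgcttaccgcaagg
H2-Ob (chr17:34238798-34238867, plus strand): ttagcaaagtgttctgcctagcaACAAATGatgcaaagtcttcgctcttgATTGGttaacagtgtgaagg

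ATTGG lay 43 to 100 bases before the annotated start in these 7 stretches, and in the 5 stretches that held both elements 20 to 23 bases separated them. Promoters were windows of 300 bases, from 250 before to 50 after the start, and both strands were searched. On 1 strand the motifs cannot share bases. No promoter was available for H2-Ab1, Cd74 or Ciita, so the member shares leave these genes out. ATTGG was present in 7 of the 8 promoters of the 7 members with an entry and in 37.4% of 32851 promoters of all genes. ACNNATG was present in 6 of the 8 and in 30.2% of all promoters, and the ordered pair within 40 bases in 4 of the 8 and in 1.09% of all. The member promoters with the pair were those of H2-Eb1, H2-Eb2, H2-DMb1 and H2-Ob. H2-Aa and H2-Oa held ATTGG without this spelling of the X box in the 40 bases ahead of it, and of the 2 promoters listed for H2-DMa the one farther downstream held ATTGG, 198 bases before its start, and the other held neither motif. The stretches of H2-DMb1 and H2-DMb2 were identical at 61 of 70 bases. A match of these letters is a description of the window and not evidence of binding.

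Most members were lower in the self-renewing macrophages. Levels are given as log2 of the background-corrected spot intensity relative to the array's 75th percentile, and differences as self-renewing minus primary. Errors are those of the scanner software's model for a single spot, not of repeated cultures. A gene with several probes is represented by its brightest. Of the 10 genes, 9 were detected on 1 or both arrays, and H2-Eb2 on neither. At least 2-fold lower were 6 genes, by 4.21- to 9.79-fold, and 0 were at least 2-fold higher, whereas across 15511 detected named genes 8.38% were at least 2-fold lower and 4.76% at least 2-fold higher. At least 5-fold lower were 4 members, a size reached by 2.93% of all genes, and this count was 2 with a different background correction (normexp) and 2 with the authors' scaled values. The median difference of the 9 members was -2.15 log2 beside -0.02 log2 over all named genes. In a bulk array, fewer cells that express class II and less class II RNA per cell cannot be told apart.

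By probe the picture was alike. The members had 16 probes, of which 12 were detected on both arrays, 1 on the primary array alone and 3 on neither. At least 2-fold lower were 10 of the 13 measured probes, and 0 were higher. The corresponding shares over 22544 detected named probes were 7.68% lower and 4.64% higher. Because 6 of the genes rest on a single probe, the SD between probes of a gene is a guide to how far a probe can stray. It was 0.325 log2 over 5077 genes with several probes detected on both arrays. Probes detected on only 1 array are not counted in it and may stray further.

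**Figure D1:**
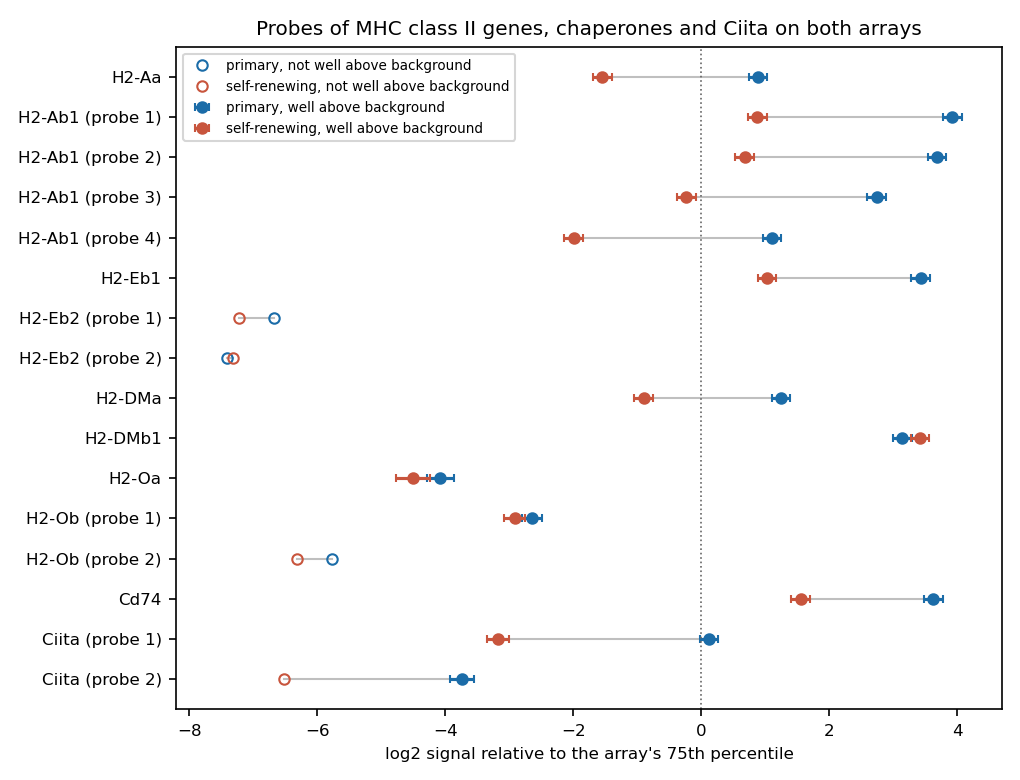
Level of each of the 16 member probes on the primary (blue) and the self-renewing (red) array, as log2 signal relative to the array's 75th percentile. Filled points were detected (well above background) and carry the spot error as bars, open points were not, and the filled pairs of H2-Aa, H2-Ab1, H2-Eb1, H2-DMa, Cd74 and Ciita lie wide apart while those of H2-DMb1, H2-Oa and H2-Ob lie close together.

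All 3 measured antigen-presenting chains were lower by more than 5-fold. H2-Aa, the alpha chain of the I-A molecule, gave an intensity of 803 ± 80.4 in primary and 153 ± 15.5 in self-renewing macrophages, a difference of -2.43 ± 0.21 log2 or 5.40-fold. The self-renewing signal was thus 18.5% of the primary signal, and both were detected. H2-Ab1, the beta chain that pairs with it, was measured by 4 probes. Their intensities went from 6589 to 819, from 5590 to 715, from 2900 to 380 and from 936 to 112. Although these probes differ in brightness, their differences were nearly equal, with a mean of -3.03 log2, an SD of 0.055 between the 4 probes and a range of -3.10 to -2.97. In folds, the probes were between 7.86 and 8.58 times lower in the self-renewing cells.

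H2-Eb1, the beta chain of the I-E molecule, went from 4667 to 907, a difference of -2.40 ± 0.20 log2 or 5.29-fold. C57BL/6 mice carry a defective gene for the I-E alpha chain and so put no I-E on the cell surface, but they transcribe H2-Eb1. No named probe measured that alpha chain gene, H2-Ea. H2-Eb2, a less studied beta chain gene beside H2-Eb1, stayed at background, with intensities of 4.22 and 2.98 for its first probe and 2.55 and 2.82 for its second. Neither probe gives a difference, and nothing can be said of a change in that gene at this sensitivity.

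The peptide exchange pair split. H2-DMa, its alpha chain, went from 1031 to 239, a difference of -2.15 ± 0.20 log2 or 4.44-fold. H2-DMb1, a beta chain of the same pair, went from 3830 to 4775 and was thus higher in the self-renewing cells by 0.28 ± 0.20 log2, or 1.21-fold. Each value rests on a single probe and a single spot. The gap between the chains of this pair was far wider than the spot errors and the SD between probes of a gene, while the H2-DMb1 difference itself was smaller than that SD. The mouse has a second beta chain gene, H2-DMb2, with a similar sequence, and its own probe was detected on neither array, at 2.50 and 10.7. Whether the H2-DMb1 probe also binds H2-DMb2 transcripts was not tested.

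H2-Oa and H2-Ob, the chains of the molecule that restrains H2-DM, were dim on both arrays and differed little. H2-Oa, the alpha chain, gave 25.7 ± 3.75 in primary and 19.8 ± 3.65 in self-renewing macrophages, a difference of -0.42 ± 0.34 log2. Its error bars overlap. The brighter probe of H2-Ob, the beta chain, went from 69.3 to 59.1, a difference of -0.27 ± 0.22 log2, which is little more than its spot error. The other H2-Ob probe was at background on both arrays, at 7.94 and 5.62.

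Cd74 and Ciita, the companion of the chains and their transactivator, were both lower. Cd74 went from 5356 to 1310, a difference of -2.07 ± 0.20 log2 or 4.21-fold, the smallest drop among the 6 lower genes. Ciita went from 471 to 49.5 by its brighter probe, a difference of -3.29 ± 0.22 log2 or 9.79-fold, the largest among them by this reading. Its dimmer probe, at 32.5 in primary macrophages, was no longer detected in self-renewing ones, at 4.87, so its drop is known only as at least 2.54-fold. The size of the Ciita difference depended on the processing and was -2.30 log2 with normexp and -2.32 log2 with the mean over both probes.

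**Figure D2:**
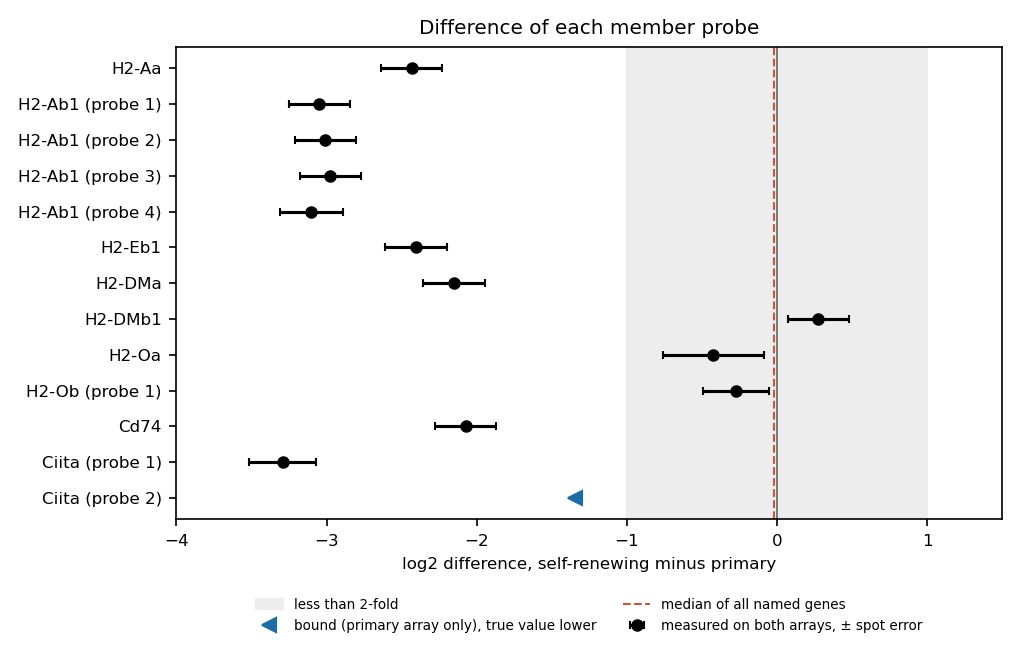
Difference of each member probe detected on 1 or both arrays (log2, self-renewing minus primary), with the spot error as bars, a triangle for a bound and a dashed line at -0.02 log2, the median of all named genes. Probes of the 6 lower genes lie left of the grey band of less than 2-fold, and H2-DMb1, H2-Oa and H2-Ob lie inside it.

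The known partners of CIITA and the pathway that induces it did not share the drop. Among 14 transcription factors of class II genes, all detected, 1 was at least 2-fold lower and 0 were higher, and the median difference was 0.06 log2. The RFX subunits gave 0.80 log2 for Rfx5, 0.61 for Rfxank and -0.62 for Rfxap. Rfx5 was dim, at 38.6 and 69.0, and its second probe was at background on both arrays. The NF-Y subunits lay between -0.06 log2 for Nfyc and 0.09 for Nfyb, with Nfya between them. The exception was Irf4, a factor of activated B cells and dendritic cells, with an intensity of 184 in primary macrophages and a signal at background, 8.15, in self-renewing ones, and thus at least 14.4-fold lower. Its relatives Irf8 and Irf1 gave -0.07 and 0.34 log2, and Spi1, the PU.1 gene of the myeloid lineage, gave 0.23.
In the interferon-gamma receptor pathway, 6 of 7 genes were detected and 0 differed by 2-fold in either direction, with a median of 0.18 log2. Ifng itself was at background on both arrays. The receptor chains Ifngr1 and Ifngr2 gave 0.34 and 0.51 log2, while Socs1, a feedback inhibitor that interferon-gamma induces, gave -0.69.

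Of 14 genes of class II antigen processing and turnover, 5 were at least 2-fold lower, 1 was at least 2-fold higher, and the median was -0.02 log2. Cathepsin S, the protease that trims CD74 in dendritic cells and B cells, was at 0.07 log2 (Ctss), and the ubiquitin ligases that send class II molecules to degradation were at -0.13 (Marchf1) and 0.09 (Marchf8). Ctsl, the cathepsin that trims CD74 in the thymic epithelium, was lower by 3.53-fold, with a difference of -1.82 log2. The other lower genes were Ctsh, a cathepsin with exopeptidase activity, at -6.19 log2 or 73.2-fold by the brightest of its 3 probes, Cd83, which opposes class II degradation, at -2.31, Lgmn, an endosomal asparagine-specific protease, at -1.94, and Ifi30, a reductase that opens disulfide bonds of antigens, at -1.26. Cd82, a tetraspanin of class II compartments, was higher by 1.37 log2 or 2.59-fold.

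**Figure D3:**
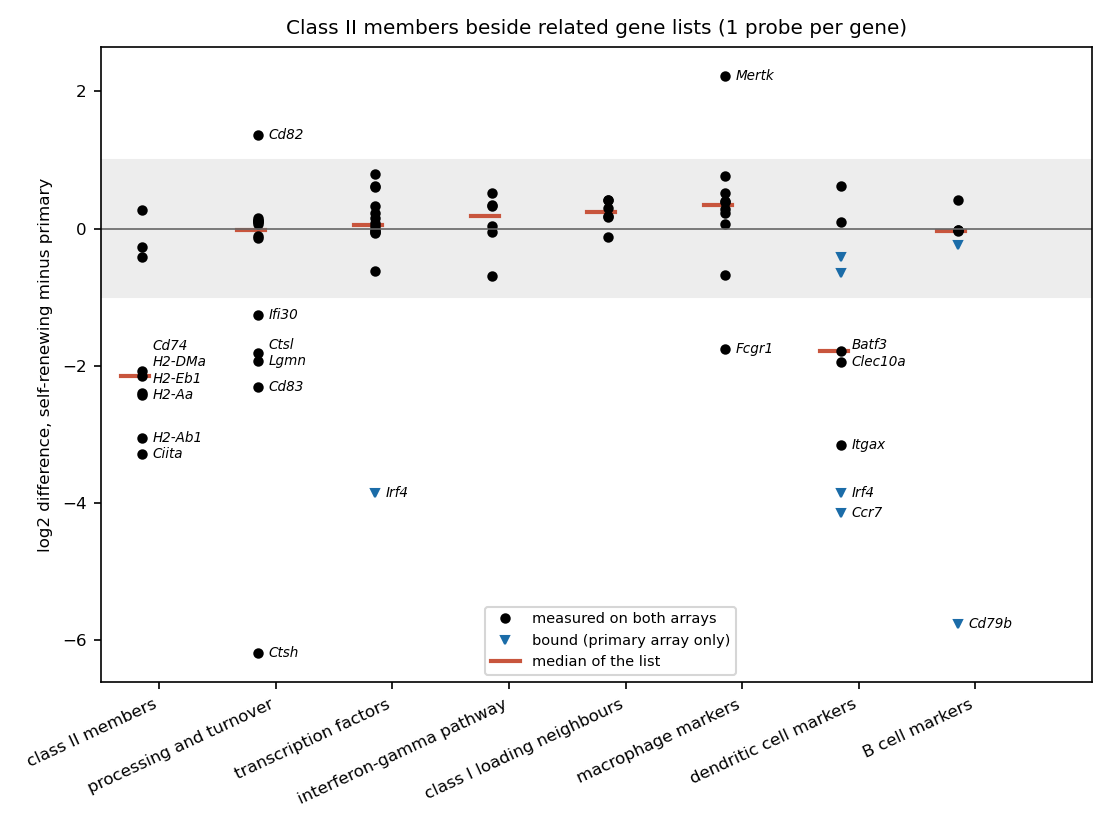
Difference per gene (log2, self-renewing minus primary, brightest probe) for the class II members and 7 related lists, with triangles for bounds, a red line at each list's median and a grey band for less than 2-fold. The members' median is -2.15 log2 and that of the dendritic cell markers is -1.79. The medians of the processing, transcription factor, interferon-gamma, class I loading and neighbour, macrophage and B cell lists lie between -0.03 and 0.34.

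In the genome the 8 members named H2 stand together on chromosome 17, mixed with genes that load class I molecules and with unrelated genes. Between H2-Ke6 and Notch4, an interval chosen after the values were seen, 34 genes are annotated and 20 were detected, 7 of them members. Of the 13 others, 12 were measured on both arrays, with a median difference of 0.20 log2, between -0.96 for Notch4 and 0.59 for H2-Ke6, and 0 of these 12 differed by 2-fold. Btnl1 was detected in primary macrophages alone and has a bound of -0.28 log2, so whether it differed by 2-fold is not known. The peptide transporter genes Tap1 and Tap2 (0.42 and -0.13 log2) and the immunoproteasome genes Psmb9 and Psmb8 (0.30 and 0.18) lie between H2-DMb1 and H2-Ob. With Tapbp and Brd2 they form a list of 6 class I loading genes and neighbours, of which 0 differed by 2-fold, with a median of 0.24 log2. The lower members of the region were H2-DMa and, apart from it, a run of H2-Ab1, H2-Aa and H2-Eb1. On both sides of H2-DMa and of this run, the nearest genes with a measured difference did not share the drop. Undetected genes, among them H2-Eb2 beside H2-Eb1, gave no difference.

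**Figure D4:**
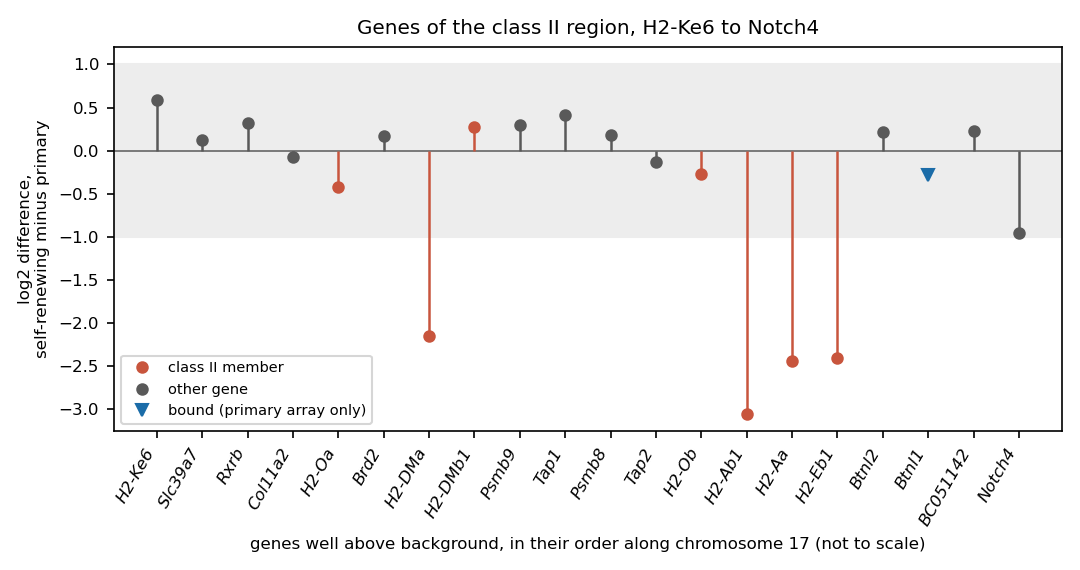
Difference (log2, self-renewing minus primary) of the 20 genes detected between H2-Ke6 and Notch4, in their order along chromosome 17 and not to scale, with class II members in red, others in grey and a triangle for a bound. H2-DMa, H2-Ab1, H2-Aa and H2-Eb1 reach -2.15 log2 or lower, the 12 other genes measured on both arrays and the other 3 members stay within the grey band of less than 2-fold, and the triangle of Btnl1 is a bound whose true value lies lower.

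Beside the members, 5 of 9 detected genes listed here as dendritic cell markers were at least 2-fold lower. Among detected genes listed as B cell markers this held for 1 of 6, and across all detected named genes for 8.38%. Both cultures had the macrophage markers: all 10 were detected, with a median difference of 0.34 log2, and Csf1r, Adgre1 and Ptprc, for the M-CSF receptor, F4/80 and CD45, gave 0.39, 0.52 and 0.40. Only Mertk, a receptor for dying cells, was at least 2-fold higher (4.68-fold), and only Fcgr1, a high-affinity Fc receptor, at least 2-fold lower (3.39-fold). Of 12 dendritic cell markers, 9 were detected, 5 were at least 2-fold lower and 0 higher, with a median of -1.79 log2 that became -1.19 when undetected probes were kept. Itgax, the CD11c gene, was 8.93-fold lower, Clec10a 3.85-fold and Batf3 3.45-fold, and Ccr7 was at least 17.7-fold lower and Irf4 at least 14.4-fold.
Several other markers on this list were at or near background on the primary array too. Xcr1, Clec9a and Dpp4 were detected on neither array, and Flt3 and Cd209a on the primary array alone, close to the limit. The other probe of Cd209a, also detected on the primary array alone, was at least 2.27-fold lower. Zbtb46 was dim and differed by 0.62 log2, higher in the self-renewing cells. The other probe of Zbtb46, detected on the self-renewing array alone, was at least 1.82-fold higher there. The 5 lower markers were brighter on the primary array, with intensities from 184 for Irf4 to 5180 for Itgax. The summed level of the list on the linear scale, relative to the 75th percentile, was 216 in the primary and 210 in the self-renewing cells, nearly all of it from 1 probe of Siglech whose second probe was at background. Without Siglech the sums were 23.0 and 4.12.
Of 9 B cell markers, 6 were detected, 1 was at least 2-fold lower and 0 higher, with a median of -0.03 log2 and summed levels of 3.38 and 1.74. Cd79b, a subunit of the B cell receptor complex, was at least 54.4-fold lower, whereas Cr2 and Pax5 gave -0.03 log2. Cd79a, the partner of Cd79b, gave 0.41 ± 0.36 log2 but was close to the detection limit on both arrays, at 15.5 and 21.3. The probes of Cd22 disagreed, with -0.02 log2 for the brightest and a drop of at least 3.56-fold for a dimmer one that was detected in primary macrophages alone. Ms4a1, Ebf1 and Blk were at background on both arrays. Which cells in the cultures made the RNA of these listed markers was not tested, nor was any part of dendritic cells or B cells in the members' difference.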

How the data were processed

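Total RNA of primary and self-renewing macrophages was labelled with Cy3 and hybridised to SurePrint G3 mouse arrays, 1 array per cell type. The authors deposited scanner output of Agilent Feature Extraction 11.5.1.1, in which each spot has an intensity after background subtraction and detrending, an error of that intensity, and other columns with flags for spots well above background, saturated and outlier spots. They also deposited a scaled table, which equals the same intensity times a constant per array (1.07 for primary and 1.19 for self-renewing, found here by comparison), with the choice of constant not given in the sources used here.

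From the deposited intensity, log2 was taken after division by the 75th percentile of gene probes on that array, 434 for primary and 446 for self-renewing. Control spots and 63 gene spots per array flagged as outliers were left out, no gene spot was saturated, and spots of a probe were averaged. Well above background were 34807 probes on the primary and 33095 on the self-renewing array. Accessions in a RefSeq gene table matched 32983 of 56598 probes (58.3%) to 22906 genes, and the others were not analysed here. Where only 1 array was well above background, the difference is a bound: the undetected side was set to the lowest detected level of its array, or to the probe's own signal if that was higher. A gene was represented by its brightest probe among those above background.

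The members and lists were chosen with earlier results of these data known. Named were all members, every gene of the lists at least 2-fold different, and genes fixed by name, and others were named after their values were seen. Results for some genes of the lists are not reported here. No test was made, since 1 array per cell type leaves no spread, and the number of arrays limits the precision of every value. Thresholds were 2-fold and 5-fold. The code was tested on simulated data. Alternatives were normexp with an offset of 50 (limma 3.58.1, R 4.3.3) on the median spot signal, quantile normalization, scaling by the 75th percentile or by the median of probes detected on both arrays, the scaled table, keeping every probe, keeping only those detected on both, and averaging the probes of a gene. Python 3.11.15 with numpy 2.4.6, pandas 2.3.3 and matplotlib 3.10.9 was used.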

Additional observations from a re-analysis of the deposited data

How the results depend on the processing

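No paired analysis was possible because 1 array was made of each kind of macrophage. Of 72 member values under the 8 alternatives, 0 changed sign and 69 moved by less than 0.325 log2. The 3 that moved further were H2-Aa, at -2.02 log2 with normexp, and Ciita, at -2.30 with normexp and -2.32 with the mean over its probes. The counts of 6 member genes at least 2-fold lower and 0 higher held within 1.5 times under every alternative, while 4 genes at least 5-fold lower became 2 with normexp and with the authors' scaled values. Those scaled values shifted all genes by 0.19 log2 and moved the share of changed probes that were higher from 37.7% to 51.5%. Over all named probes, 1732 lower and 1047 higher became 924 and 553 with normexp and 3156 and 1650 with no filter, and 1036 were lower when only probes above background on both arrays were kept. Over all named genes, 1300 lower became 750, 2335 and 782 in turn, and 738 higher became 428 with normexp and 1191 with no filter. Lower dendritic cell markers were 5, and 3 with only probes above background on both arrays, their median of -1.79 log2 became -1.37 with normexp and -1.19 with no filter, where 1 was higher, and lower B cell markers were 1, and between 0 and 3 under the alternatives. Signal over background limits H2-Eb2, which was at background, and H2-Oa, which was close to it.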
